A study of Mus musculus with 8 samples.

Results

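The 9 miRs described here are the guide arms, the strand of each hairpin that is usually loaded into Argonaute, of 2 murine miR clusters. MiR-17-92 gives 6 of them (mmu-miR-17-5p, mmu-miR-18a-5p, mmu-miR-19a-3p, mmu-miR-20a-5p, mmu-miR-19b-3p and mmu-miR-92a-3p), and its paralog miR-106b-25 gives 3 (mmu-miR-106b-5p, mmu-miR-93-5p and mmu-miR-25-3p). Elsewhere the species prefix mmu is left out. The 9 arms were chosen by name among the 1079 murine miRs on the arrays. The rule uses no signal, although earlier results of these data were known when the clusters were picked. All 9 were found and detected on all 8 arrays. Total RNA came from callus, the repair tissue at the fracture gap, of CD-1 mice 7 days after a femoral osteotomy held by a pin and a clip. The Non-union group (specimens P13 to P16) had a gap of 1.8 mm and, per the methods, the periosteum next to the gap was stripped. The Union group (P17 to P20) had a gap of 0.25 mm and is not described as stripped, so that gap size and stripping cannot be told apart. The methods name adult mice of both sexes, and the sex and age of each specimen are not given in the sources used here. Callus was taken before bone bridging could be seen, so that the group names give the outcome known from this model and not an outcome seen in these 8 mice.

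MiRs of a cluster are cut from 1 primary transcript, and each then pairs with target mRNAs mainly through its seed, bases 2 to 8. MiR-17-92 is transcribed from the Mir17hg gene, is activated by Myc and E2F factors and is known for promoting proliferation, and its loss in mice and humans causes skeletal defects. MiR-106b-25 lies in an intron of Mcm7, a subunit of the helicase that licenses DNA replication, and is transcribed with it. In callus, cells of many kinds divide and differentiate, among them fibroblasts, chondrocytes, vessel cells and leukocytes, and all of them can carry these miRs.

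The mature sequences are shown because 4 seeds are shared out over the 9 guide arms, and because arms that differ by few bases may not be told apart fully by a hybridization probe. They were taken from RefSeq (GRCm38.p6), where 9 of 9 guide arms were matched by name, and are written 5′ to 3′ with the seed in capitals. The 6 hairpins of miR-17-92 span 836 bases at chr14:115043671-115044506 on the plus strand, in the order Mir17, Mir18, Mir19a, Mir20a, Mir19b-1 and Mir92-1. The 3 hairpins of miR-106b-25 span 498 bases at chr5:138165321-138165818 on the minus strand, in the order Mir106b, Mir93 and Mir25, and the RefSeq table places all of them within Mcm7.

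The first seed, AAAGUGC, is that of 4 guide arms from both clusters, and is also that of miR-20b-5p from the third paralog, miR-106a-363 on chromosome X.
mmu-miR-17-5p: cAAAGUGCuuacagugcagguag
mmu-miR-20a-5p: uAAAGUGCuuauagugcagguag
mmu-miR-106b-5p: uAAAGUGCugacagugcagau
mmu-miR-93-5p: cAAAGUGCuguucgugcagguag
mmu-miR-20b-5p: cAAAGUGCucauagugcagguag

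The seed of miR-18a-5p, AAGGUGC, differs from it by 1 base, and among the guide arms it is held by this arm alone.
mmu-miR-18a-5p: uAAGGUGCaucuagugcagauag

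The seed GUGCAAA is that of the miR-19 pair.
mmu-miR-19a-3p: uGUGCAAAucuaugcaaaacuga
mmu-miR-19b-3p: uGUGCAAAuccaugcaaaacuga

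The seed AUUGCAC is that of miR-92a-3p and miR-25-3p, the last arms of their clusters.
mmu-miR-92a-3p: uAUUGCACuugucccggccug
mmu-miR-25-3p: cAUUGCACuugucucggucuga

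MiR-17-5p and miR-20a-5p differ at 2 of 23 bases, and miR-20a-5p and miR-20b-5p also at 2 of 23. MiR-19a-3p and miR-19b-3p differ at 1 of 23, and miR-92a-3p and miR-25-3p at 3 of 21. MiR-19b-3p and miR-92a-3p are each made from 2 loci, chr14:115044358-115044380 and chrX:52741991-52742013 for miR-19b-3p, and chr14:115044476-115044496 and chrX:52741854-52741874 for miR-92a-3p. The signal of these 2 arms therefore cannot be assigned to 1 cluster. Cross-hybridization between close sequences was not tested, and the sequences of the probes were not analysed here.

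All 8 arrays lay on 1 slide that was scanned once. Non-union and Union arrays filled separate rows of it, so that row and group cannot be told apart. Each of its 4 columns held 1 array of each group (P13 and P17, P14 and P18, P15 and P19, P16 and P20). Between 324 and 391 murine miRs per array were detected, and 310 were detected on all of them and tested. Each guide arm was measured by 40 spots of 2 probes per array, of which the scanner software merged those not marked as outliers (8 to 26 of the 360 guide arm spots of an array were marked) into 1 background-corrected signal in arbitrary units. None of these spots was saturated. Units of different miRs are not compared here, because probes differ in how well they bind. The p-values measure the spread between the specimens, and their number limits the precision.

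The guide arms of miR-17-92 were measured at similar merged signals in both groups. MiR-18a-5p, which targets connective tissue growth factor, had merged signals of 116, 96.9, 116 and 96.3 units on P13 to P16 and of 105, 80.8, 108 and 141 units on P17 to P20. The Union specimens P18 and P20 were the lowest and the highest, and the Non-union specimens lay between them. MiR-19a-3p gave 297, 253, 298 and 242 units in the Non-union group and 277, 213, 283 and 431 units in the Union group. MiR-19b-3p gave 1135, 998, 1105 and 967 units against 1060, 827, 1036 and 1384 units. Both miR-19 arms were thus again lowest on P18 and highest on P20, and the groups overlapped.

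MiR-20a-5p, which shares its seed with miR-17-5p, gave 579, 530, 584 and 519 units in the Non-union group and 577, 425, 542 and 707 units in the Union group. MiR-92a-3p, the arm that is known for its effect on vessel growth, gave 389, 359, 365 and 351 units against 425, 342, 402 and 520 units. The Non-union specimens spanned a narrow range in both arms, and the Union specimens lay on both sides of it.

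The arms of miR-106b-25 were also lowest on P18 within the Union group. MiR-106b-5p, which targets the cell cycle inhibitor p21, gave 404, 401, 351 and 313 units in the Non-union group and 460, 309, 352 and 563 units in the Union group. MiR-93-5p gave 233, 221, 209 and 189 units against 263, 178, 225 and 246 units. MiR-25-3p, which shares its seed with miR-92a-3p, gave 288, 299, 264 and 246 units against 353, 251, 291 and 355 units. In miR-93-5p the highest Union specimen was P17 rather than P20, and in miR-25-3p P17 and P20 were nearly equal.

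MiR-17-5p was measured close to the limit of detection, with 9.14, 6.66, 7.44 and 5.06 units on P13 to P16 and 9.34, 5.14, 6.83 and 5.63 units on P17 to P20. The lowest merged signal of any detected miR was 2.16 units. The signal error given by the scanner software was 18.1 to 31.1% of the signal for miR-17-5p and 7.24 to 8.99% for the other 8 arms. MiR-17-5p had a spot well above background on 7 of 8 arrays and none on P16, whereas the other 8 arms had such spots on all arrays. It is therefore described apart from them.

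**Figure D1:**
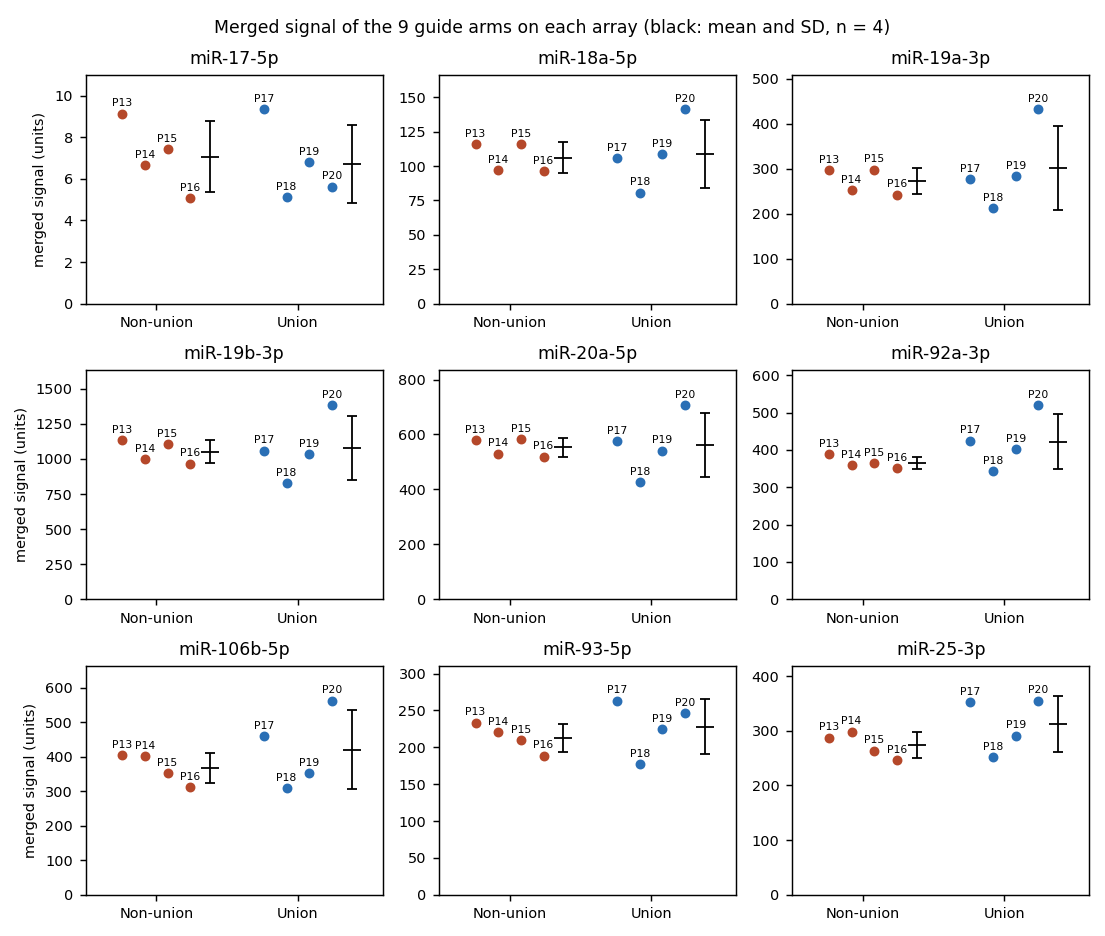
Merged signals in units on a linear axis from 0, 1 panel per guide arm and 1 point per array, with the mean and SD of each group of 4 in black. P18 was the lowest Union specimen in 9 of 9 arms and P20 the highest of all 8 specimens in 7 of 9, and the 2 groups overlap in every panel.

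The question of the comparison was whether the guide arms differ between callus that goes on to non-union and callus that heals. For the test, log2 merged signals were brought to a common distribution across the arrays by quantile normalization with all murine miRs. Differences are Non-union minus Union on this log2 scale. An FC is 2 to the power of such a difference. None of the 9 guide arms passed an adjusted limma p of 0.05, and their adjusted p ranged from 0.378 to 0.972. Over all 310 tested miRs, 0.323% passed this threshold, which is 1 miR. By the unadjusted limma p of 0.05, which was the threshold of the study, 0 of 9 guide arms were called, against 13.9% of all tested miRs (9.68% higher and 4.19% lower in the Non-union group). A change of 2-fold or more was reached by 0 of 9 guide arms and by 8.39% of all tested miRs. The groups overlapped in 9 of 9 guide arms, and they did not overlap in 3.87% of all tested miRs. With either criterion of the study (the unadjusted p or an FC of 2), 15.8% of all tested miRs and 0 of 9 guide arms were called. The study names no limma fit and tested its own set of miRs detected in all samples. Only its thresholds are used here, and the shares are not its counts.

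For 8 of the 9 arms the differences were small and their intervals bounded them. Leaving out miR-17-5p, the differences lay between 0.01 for miR-92a-3p and 0.27 for miR-18a-5p, with standard errors of 0.20 to 0.28. The 95% limma intervals of these 8 arms reached from −0.54 at the lowest to 0.91 at the highest, which is an FC between 0.688 and 1.87. The intervals of 8 of 8 arms thus stayed within a 2-fold change in either direction, and with miR-17-5p counted 8 of 9 did. Of all tested miRs, 43.2% (134 of 310) had such an interval. The tested miRs include dim ones, 13 of them with a normalized value under the lowest detected signal. Arms and miRs of like brightness were not compared.

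Of the miR-17-92 arms, miR-18a-5p had the largest difference among these 8, from 6.61 ± 0.51 (SD, n = 4) in the Union group to 6.88 ± 0.27 (SD, n = 4) in the Non-union group. Its FC was 1.20 with an interval from 0.775 to 1.87 (limma, adjusted p = 0.538). The miR-19 pair differed by 0.11 (miR-19a-3p, interval −0.53 to 0.75) and 0.06 (miR-19b-3p, −0.41 to 0.52). MiR-20a-5p measured 9.10 ± 0.12 and 9.07 ± 0.37 (SD, n = 4 each) in the Non-union and Union groups and thus differed by 0.03, with an interval from −0.47 to 0.53. MiR-92a-3p had nearly the same mean in both groups, 8.65 ± 0.25 and 8.64 ± 0.39 (SD, n = 4 each), with an interval from −0.54 to 0.57.

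Of the miR-106b-25 arms, miR-106b-5p measured 8.62 ± 0.08 and 8.60 ± 0.44 (SD, n = 4 each), a difference of 0.02 with an interval from −0.52 to 0.56. MiR-93-5p, the middle arm of the cluster, differed by 0.16 (interval −0.34 to 0.67; two-sided exact permutation test, p = 0.6). MiR-25-3p differed by 0.03, and its interval of −0.41 to 0.48 was the narrowest of the cluster. Over the 8 arms, the two-sided exact permutation p ranged from 0.343 to 0.971, where 0.0286 is the smallest that 4 arrays against 4 allow.

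The direction of these small differences depended on the processing. After quantile normalization of the merged signals 9 of 9 arms were higher in the Non-union group. The same count was found with the 75th percentile of the detected or of all murine miRs as the scale. It was 6 of 9 when a normexp background correction preceded quantile normalization, and 1 of 9 without normalization. The 8 lower values without normalization ran from −0.00403 for miR-20a-5p to −0.19 for miR-92a-3p. The median difference of all 310 tested miRs also moved, from 0.15 after quantile normalization to −0.10 without it. Relative to these medians the 8 arms lay between −0.14 and 0.12 after quantile normalization and between −0.09 and 0.10 without it. The median difference was 0.08 over the 6 miR-17-92 arms and 0.03 over the 3 miR-106b-25 arms. The median absolute difference of all tested miRs was 0.41.

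**Figure D2:**
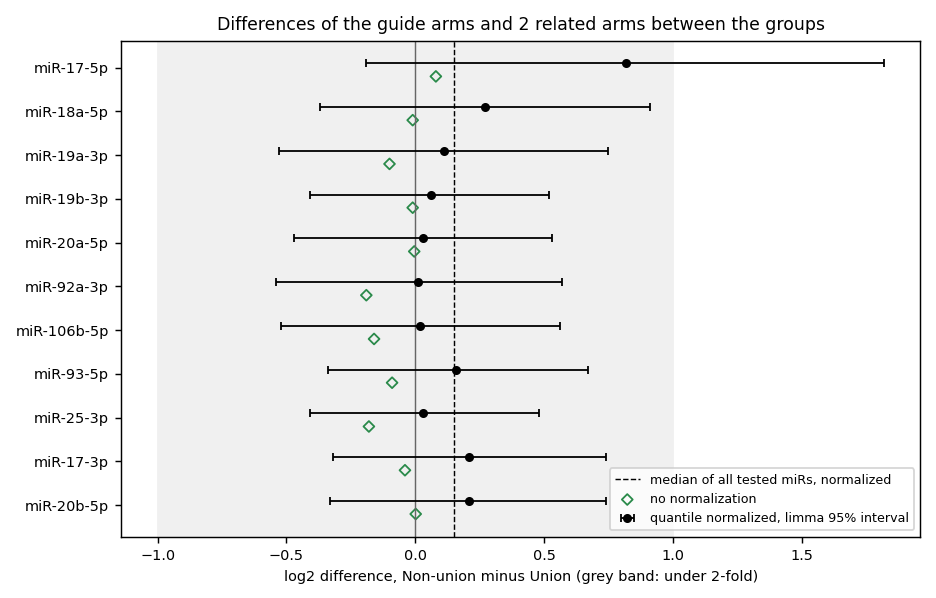
Log2 differences (Non-union minus Union) of the 9 guide arms, of miR-17-3p and of miR-20b-5p, as filled points with 95% limma intervals after quantile normalization and as open diamonds without normalization; the dashed line is the median of all tested miRs and the grey band marks changes under 2-fold. Only the interval of miR-17-5p leaves the band, and every interval includes 0.

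MiR-17-5p had the largest difference of the 9 arms after quantile normalization, 0.82 with a standard error of 0.44 and an interval from −0.19 to 1.82. This is an FC of 1.76 with an interval from 0.88 to 3.54, and it did not pass the test (limma, p = 0.0982, adjusted p = 0.378; two-sided exact permutation test, p = 0.171). The merged signals themselves hardly differed, with 7.07 ± 1.70 and 6.73 ± 1.87 units (SD, n = 4 each) in the Non-union and Union groups, which is 0.08 on the log2 scale (two-sided exact permutation test, p = 0.857). Quantile normalization had lowered its signal on P18 from 5.14 to the equivalent of 2.15 units, which is under the lowest signal of any detected miR. A normalized value this low was found in 13 of the 310 tested miRs, and miR-17-5p was the 1 guide arm among them.

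Under other normalizations the difference of miR-17-5p was smaller. It came to 0.15 when the 310 detected miRs alone were quantile normalized, to 0.31 with the 75th percentile of these miRs as the scale and to 0.26 in the value table of the authors. Without P14 it was 1.15 (limma, adjusted p = 0.258) and without P19 1.1 (limma, adjusted p = 0.127), and in these 2 cases it passed the unadjusted threshold. Of its 2 probes, probe 1 was near background, with mean processed signals of 0.115 to 3.79 units over the arrays, so that its difference is not read. Probe 2 alone gave a difference of 0.82 with normalization and of 0.07 without it.

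Arrays in the same column of the slide deviated together. Over the 310 tested miRs, the deviations of the 2 arrays of a column from their group means had correlations of 0.36, 0.57, 0.69 and 0.33 in the 4 columns, given as a description. The comparison was therefore also fitted with the slide column as a block. In that fit 25.2% of all tested miRs passed the unadjusted limma p of 0.05 and 4.19% the adjusted one, against 1 and 0 of the 9 guide arms. The 1 arm was miR-17-5p, whose difference of 0.82 had a standard error of 0.27 (limma, adjusted p = 0.123). After quantile normalization miR-17-5p was higher in the Non-union array in 4 of 4 columns. From column 1 to column 4 the differences were 0.67, 0.85, 0.17 and 1.59. Its merged signals were higher on P14 than P18 (6.66 and 5.14 units) and on P15 than P19 (7.44 and 6.83 units). They were lower on P13 than P17 (9.14 and 9.34 units) and on P16 than P20 (5.06 and 5.63 units). P16, in the column with 1.59, had no spot well above background for this arm. For the other 8 arms the intervals in the fit with the block reached from −0.50 to 0.76. After quantile normalization 2 or 3 of the 4 columns had the higher value of these arms in the Non-union array. MiR-18a-5p differed by 0.60, 0.40, 0.20 and −0.12 in the columns, and miR-106b-5p by 0.07, 0.41, 0.09 and −0.50.

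The guide arms other than miR-17-5p shared a pattern over the specimens that ran across the groups. After quantile normalization P18 was the lowest of all 8 specimens in 7 of these 8 arms, which held for 29.7% of all tested miRs. P20 was the highest in 6 of 8 arms, and in 23.9% of all tested miRs. Without normalization P18 was the lowest in 7 of 8 arms (21.9% of all tested miRs) and P20 the highest in 7 of 8 (21.3%). After quantile normalization P14, in the slide column of P18, was the lowest Non-union specimen in 7 of 8 arms. The part of the slide column in this pattern was not tested. The Union group thus held both ends of the range in most of these arms, and its SD exceeded that of the Non-union group in 9 of 9 guide arms. This inequality was also found in 81.9% of all tested miRs after quantile normalization and in 70.3% without it. Within the Non-union group the order depended on the scaling. P16 was the highest Non-union specimen in 6 of 8 arms after quantile normalization and the lowest in 8 of 8 without it. This array also had the lowest summed merged signal of all 8 arrays (183589 units) and the fewest detected miRs (324). How many of all tested miRs ranked P14 or P16 in this way was not counted. These 2 ranks are therefore not read as a trait of the guide arms.

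The SD of the arms within groups ranged from 0.21 for miR-25-3p to 0.72 for miR-17-5p, with a median of 0.32, against a median of 0.44 over all tested miRs. A lower SD than this median of the arms was found in 97 of the 310 tested miRs.

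**Figure D3:**
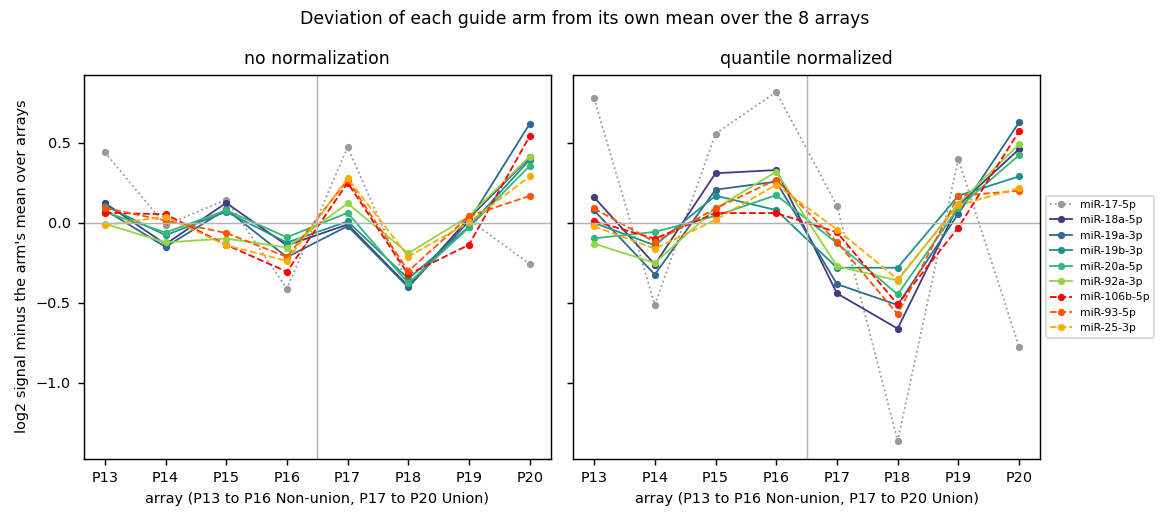
Log2 signal of each guide arm minus its own mean over the 8 arrays, by array, without normalization (left) and after quantile normalization (right), with miR-17-92 arms as solid lines, miR-106b-25 arms as dashed lines and miR-17-5p dotted; the grey vertical line parts the groups. The 8 arms other than miR-17-5p dip together on P18 and rise together on P20, while miR-17-5p departs from them in both panels.

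P20, at the upper end of this pattern, also stood apart in miRs of myeloid cells. The myeloid and leukocyte list (miR-223-3p, miR-142-3p and miR-142-5p, 3 of 4 listed miRs detected on all arrays, miR-223-5p on none) had a mean normalized log2 signal of 12.00 on P20, above the 10.01 to 10.16 of the other Union specimens and the 9.53 to 10.12 of the Non-union specimens. The cartilage list (miR-140-3p, miR-140-5p, miR-455-3p and miR-455-5p, 4 of 4 detected) was at 5.67 on P17 and on P18, at 6.20 and 6.93 on P20 and P19, and at 6.47 to 8.69 in the Non-union group. The stromal list (5 of 5 detected) ranged from 9.06 to 9.37 in the Non-union group and from 8.15 to 9.15 in the Union group. The skeletal muscle list (4 of 6 detected on all arrays) ranged from 12.33 to 13.61 and from 13.10 to 13.54. The red blood cell list (3 of 4, miR-486-5p not found under this name) ranged from 7.04 to 8.61 and from 7.21 to 9.19. The part of these lists in the pattern of the guide arms was not tested. In bulk callus, fewer cells that carry a miR and less of it per cell cannot be told apart.

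Leaving out P18 or P20 moved the 8 arms other than miR-17-5p. Without P20 their differences were 0.11 to 0.46, and that of miR-17-5p was 0.71. Without P18 they were −0.16 to 0.09, and that of miR-17-5p was 0.52. In both cases no guide arm passed an unadjusted limma p of 0.05, and the smallest p of the 8 arms was 0.105 without P20.

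How closely 2 arms moved together was measured by the SD over the 8 arrays of the difference of their log2 signals, which is small when they rise and fall by the same factor. A constant difference in brightness between probes cancels in it, but the larger relative noise of dim miRs such as miR-17-5p does not. The values are given as a description, since arms measured on the same array share its RNA and its scaling. Without normalization the 10 pairs within miR-17-92 other than those with miR-17-5p had a mean of 0.0951 (range 0.0346 to 0.148), and the 3 pairs within miR-106b-25 had a mean of 0.122 (0.0787 to 0.164). The 15 pairs across the clusters had a mean of 0.165 (0.105 to 0.222). Outside pairs, of a guide arm and a tested miR other than the guide arms and their related arms, numbered 2384. Their median was 0.489 (range 0.0663 to 1.6). The closest outside pair thus lay below all pairs across the clusters and all pairs within miR-106b-25. It also lay inside the range of the pairs within miR-17-92. No test was made of these values.

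The closest pairs of guide arms lay within miR-17-92, miR-19b-3p with miR-20a-5p at 0.0346, miR-18a-5p with miR-19b-3p at 0.0417 and miR-18a-5p with miR-20a-5p at 0.0597. MiR-19b-3p is also encoded on chromosome X, so that its pairs are not of miR-17-92 alone. In miR-106b-25 the closest pair was miR-93-5p with miR-25-3p, at 0.0787. This order was not kept after quantile normalization, where pairs within miR-17-92 had a mean of 0.165, pairs within miR-106b-25 of 0.153 and pairs across the clusters of 0.174. The closest pair of guide arms was then miR-20a-5p with miR-106b-5p at 0.10, which share a seed and come from different clusters. The closest outside pair was then at 0.0493, below all pairs of guide arms, and the median of the outside pairs was 0.505. The 3 pairs that share a seed across the clusters (miR-20a-5p with miR-106b-5p and with miR-93-5p, miR-92a-3p with miR-25-3p) had a mean of 0.127 after quantile normalization and of 0.135 without it. With miR-17-5p included, pairs of the same cluster had a mean of 0.323 and pairs of different clusters of 0.264 after quantile normalization.

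**Figure D4:**
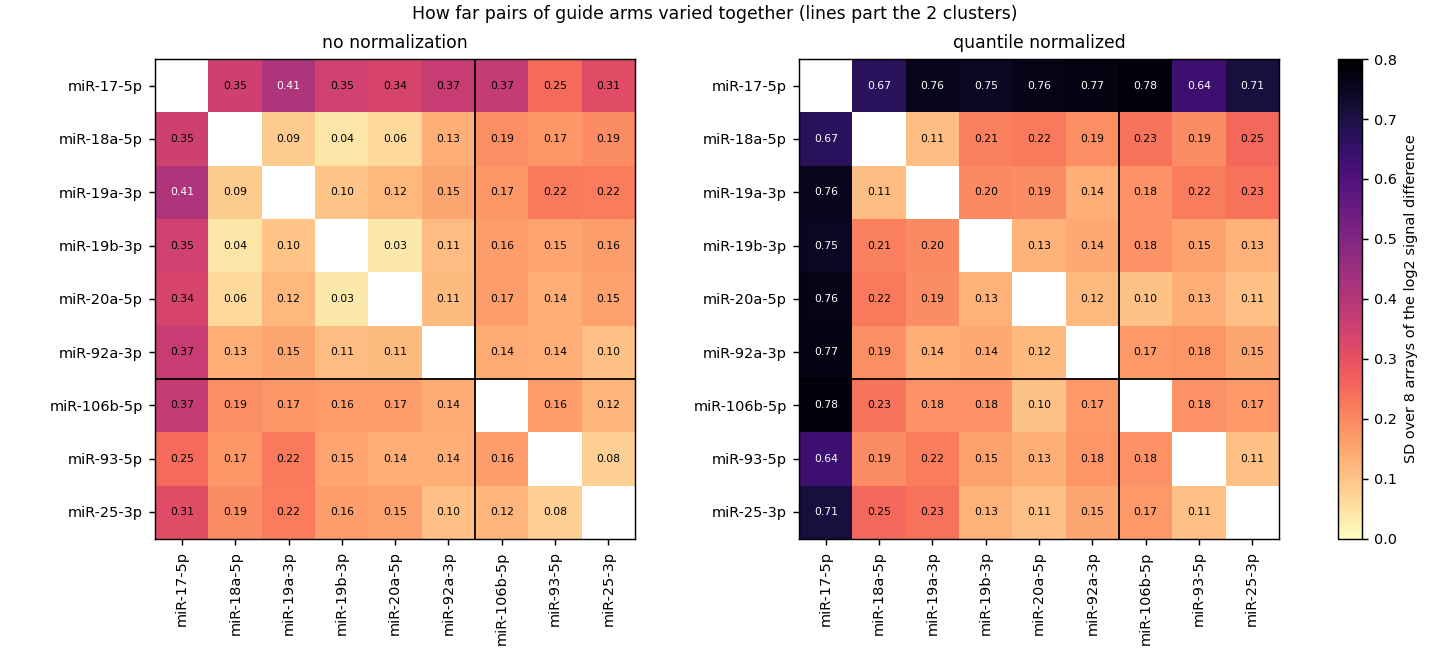
SD over the 8 arrays of the difference of 2 guide arms' log2 signals for all pairs, without normalization (left) and after quantile normalization (right), with black lines between the clusters and light colours for pairs that moved closely together. The lightest cells on the left lie within miR-17-92 without miR-17-5p, on the right the light cells are spread over both clusters, and the row of miR-17-5p is the darkest in both.

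The balance of the clusters within a specimen was compared without normalization, since a scaling factor of an array cancels in it. The mean log2 signal of the 5 miR-17-92 arms without miR-17-5p minus that of the 3 miR-106b-25 arms was 0.37, 0.20, 0.51 and 0.45 on P13 to P16 and 0.11, 0.28, 0.38 and 0.45 on P17 to P20. Its absolute size depends on the probes, and only its variation is read here. Of the 5 arms, miR-19b-3p and miR-92a-3p are also encoded on chromosome X, so that this balance is not of miR-17-92 alone. The means were 0.38 ± 0.13 and 0.30 ± 0.15 (SD, n = 4 each), the groups overlapped, and the lowest value was that of P17. MiR-20a-5p minus miR-106b-5p, which share a seed, was 0.60 ± 0.16 against 0.44 ± 0.14, and miR-19b-3p minus miR-25-3p was 1.94 ± 0.14 against 1.77 ± 0.16 (SD, n = 4 each), with overlapping groups in both. For miR-92a-3p against miR-25-3p, the pair with a common seed at the ends of the clusters, the same difference was 0.42 ± 0.11 against 0.43 ± 0.12 (SD, n = 4 each).

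Of the other arms of the 2 clusters, 1 of 9 was detected on all arrays and 8 on none. The detected one was miR-17-3p, the partner strand of miR-17-5p, which is shown here because it reports on the same hairpin.
mmu-miR-17-3p: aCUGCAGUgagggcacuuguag
MiR-17-3p gave 35.4, 27.7, 30.04 and 23.5 units on P13 to P16 and 29.8, 24.3, 29.8 and 35.8 units on P17 to P20. It was high on P13 and P20 and low on P16 and P18, and the groups overlapped. Its normalized difference was 0.21 with an interval from −0.32 to 0.74 (limma, adjusted p = 0.556). It departed from the mean pattern of the 9 arms by an SD of 0.123, against 0.642 for miR-17-5p and 0.0624 to 0.172 for the other 8 arms. That mean holds each of the 9 arms, miR-17-5p among them, but not miR-17-3p, so that these values are not fully alike.

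In the third paralog, miR-106a-363, 9 of 10 listed arms were on the arrays, and miR-106a-5p was not found under this name. MiR-20b-5p was detected on all arrays and the other 8 on none. It gave 289, 257, 280 and 257 units in the Non-union group and 289, 205, 254 and 353 units in the Union group. It was thus lowest on P18 and highest on P20, as was miR-20a-5p, from which it differs at 2 bases. The log2 difference between miR-20a-5p and miR-20b-5p varied over the 8 arrays by an SD of 0.0339 without normalization, about that of the closest pair of guide arms, and whether both probe sets bind both miRs was not tested. Its group difference was 0.21 after quantile normalization (interval −0.33 to 0.74) and 0.00178 without normalization.

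Of 2 further miRs with the seed AUUGCAC, miR-92b-3p was detected on no array. MiR-32-5p gave 2.48 to 5.89 units in the Non-union group and 2.48 to 6.89 units in the Union group, close to the lowest detected signal. Its normalized difference of 1.86 reached an FC of 2 and had an interval from −0.47 to 4.19 (limma, adjusted p = 0.378). Without normalization the difference was −0.09.

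Among the 298 tested murine miRs other than the guide arms and their related arms, the 5 whose normalized pattern over the 8 arrays was nearest to the mean of the 9 guide arms were miR-7a-5p, let-7f-5p, miR-345-5p, miR-98-5p and let-7i-5p. Their SD of the difference to this mean, which includes miR-17-5p, was 0.103, 0.108, 0.115, 0.124 and 0.13. Their own group differences were 0.22, 0.28, 0.23, 0.32 and 0.10, and none of them passed the test (limma, adjusted p from 0.386 to 0.726). MiR-7a-5p, the nearest, had normalized log2 signals of 5.94, 5.57, 5.88 and 6.18 on P13 to P16 and of 5.42, 5.34, 5.84 and 6.08 on P17 to P20. It was lowest on P18, as were 8 of the 9 guide arms, and highest on P16. Let-7f-5p, miR-345-5p, miR-98-5p and let-7i-5p were also lowest on P18.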

How the data were processed

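Callus RNA of 4 Non-union and 4 Union specimens was labelled with Cy3 and measured on 8 arrays of 1 slide. Per the file headers, the scans were read with Agilent Feature Extraction (version 10.10.1.1). The deposited scanner files hold background-corrected intensity values per spot, detection calls and 1 merged signal per miR (0.1 where not detected). A deposited table of the authors' log2 values served as an alternative. Groups came from the sample labels.

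Log2 merged signals of all 1079 murine miRs were quantile normalized, as the study's methods describe. The 310 miRs detected on all arrays were fitted with limma 3.58.1 (lmFit and eBayes, R 4.3.3, two-sided, Benjamini-Hochberg adjustment over all of them, 95% intervals). A single arm was also tested by permuting all 70 arrangements of the arrays. Python 3.11.15 with pandas 2.3.3, numpy 2.4.6, scipy 1.17.1 and matplotlib 3.10.9 served for reading and plotting. The fit was tested on simulated data.

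The members, though named by a rule that uses no signal, and the lists were chosen with earlier results of these data known. The miRs named are the 9 guide arms, the other arms of their clusters, miR-106a-363, 2 seed relatives, 5 miRs of nearest pattern and, beside a result, the cell type lists. Whether a single arm passed under an alternative was read from the unadjusted limma p at 0.05. Alternatives were other normalizations, processed or normexp-corrected spot signals (offset 50, on the median spot signal and background), stricter and looser detection filters, a floor of 1 unit, an intensity trend in limma, the authors' value table, each probe alone and leaving out arrays. The slide column as a block was added after the data were seen. Array data carry no depth, and signals below detection are floors. RefSeq names were matched for 9 of 9 guide arms, and for 28 of 30 listed miRs when the guide arms and their related arms are counted together.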

Additional observations from a re-analysis of the deposited data

How the results depend on the processing

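Over 224 values of single guide arms under an alternative, 192 kept their direction and their side of the threshold, 4 passed it (all miR-17-5p) and 28 changed sign, with a largest absolute value of 0.19 among the latter. Without normalization the differences were −0.01 for miR-18a-5p, −0.10 for miR-19a-3p, −0.01 for miR-19b-3p, −0.00403 for miR-20a-5p, −0.19 for miR-92a-3p, −0.16 for miR-106b-5p, −0.09 for miR-93-5p and −0.18 for miR-25-3p. With the normexp correction they were −0.03 for miR-19b-3p, −0.02 for miR-20a-5p and −0.03 for miR-106b-5p. Of single probes, probe 1 of miR-17-5p, at background and without information, gave −0.11, and probe 2 gave −0.00407 for miR-92a-3p and −0.0049 for miR-106b-5p. Leaving out 1 array, the differences ranged from 0.52 to 1.15 for miR-17-5p, 0.09 to 0.46 for miR-18a-5p, −0.05 to 0.34 for miR-19a-3p, −0.03 to 0.17 for miR-19b-3p, −0.11 to 0.19 for miR-20a-5p, −0.11 to 0.18 for miR-92a-3p, −0.16 to 0.21 for miR-106b-5p, −0.00115 to 0.25 for miR-93-5p and −0.08 to 0.11 for miR-25-3p. The count of guide arms past an unadjusted p of 0.05 ranged from 0 to 1 on leaving out 1 array. It was 1 without P14 and P19 together, where miR-17-5p differed by 1.47 (limma, adjusted p = 0.0671), and 1 with the slide column as a block, an alternative chosen after seeing the data, where miR-17-5p differed by 0.82. Over all tested miRs the count past an unadjusted p was 43, from 18 without P17 to 115 without P19, with 122 without P14 and P19 and 78 with the slide column as a block. The count past an adjusted p was 1, and it was 0 with the 75th percentile over all murine miRs, without normalization or with normexp, 2 with quantile normalization over the detected miRs or with no filter, 3 for miRs detected on every array of 1 group, 0 to 12 on leaving out 1 array, 21 without P14 and P19 and 13 with the slide column as a block. The causes were not tested. No guide arm passed an adjusted p of 0.05 under any of the 22 alternatives of the fit. MiR-17-5p had no value under the filter that asks for a spot well above background on each array. The intervals of 8 of 8 other arms stayed within 2-fold, except 7 without P13, P14, P19 or P20 and 6 without P14 and P19. No paired analysis by specimen number was possible because the groups share none.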
